A study of Mus musculus with 7 samples.

Results

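Transcripts of phospholipid synthesis and remodelling were followed in 3T3-L1, a mouse cell line of pre-adipocytes that becomes fat cells when given a hormone mixture. The set was a list of 35 named genes, taken from the array rows whose annotation gives exactly 1 symbol, with the row of the highest mean over all 7 arrays standing for a gene. This gave 33 genes of 18820 tested. Etnk2 had no such row, and the rows that carry the symbol of Agpat1 carry that of Egfl8 as well, so neither gene was analysed here. Rows that carry Ptdss1, Chkb or Lpcat3 beside a second symbol were left out too. The 3 SCD inhibitor arrays came from cells kept in 1 µM of a commercial inhibitor of stearoyl-CoA desaturase, the enzyme that turns saturated into monounsaturated fatty acids. The 4 DMSO arrays came from cells kept in an equal volume of the solvent. In both groups differentiation was started by 2 days in human insulin, dexamethasone and isobutylmethylxanthine, human insulin was kept on afterwards, and RNA was taken on day 7. The sources used here give no name for the compound, and all cells are of 1 line. Whether replicates were separate cultures is not stated, so p-values reflect the spread among these arrays, and that spread may be technical.

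Phosphatidylcholine and phosphatidylethanolamine, the main phospholipids of mammalian membranes, are made from diacylglycerol by the Kennedy pathway. In it a kinase phosphorylates choline or ethanolamine, a cytidylyl-transferase activates the product with CTP, and a phosphotransferase joins it to diacylglycerol. Phosphatidylserine, phosphatidylinositol and cardiolipin are made by base exchange or from CDP-diacylglycerol. In the Lands cycle, phospholipases A2 then remove the fatty acid of the middle carbon and lysophospholipid acyltransferases put another in its place, which sets how unsaturated the membrane is.

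Most transcripts of the set were close to their DMSO level under the inhibitor, and 3 of the 5 called ones encode phospholipases A2. Of the 33 genes, 2 rose (Lpcat2 and Pla2g15) and 3 fell (Pla2g4a, Pla2g12a and Agpat3) at an adjusted p under 0.05 in limma, a linear model fitted to all genes. Over all genes 8.00% were called, 3.62% higher and 4.37% lower. Dim genes are seldom called, and 27 of the 33 genes belong to the brighter 50% of all genes, in which 14.9% were called. Among those 27 the share was 14.8%, or 4 genes, so the count lies near the background. The median difference, inhibitor minus DMSO, was 0.009 on the log2 scale over the 33 genes and -0.004 over all genes, and the median absolute difference was 0.097 and 0.045. These medians were not matched for brightness: the median level was 8.52 in the set and 5.59 over all genes. The largest decrease in the set was that of Pla2g4a, which fell by 0.56, and the largest increase that of Lpcat2, which rose by 0.36. Of the 28 genes not called, 22 had a 95% interval that lay wholly within 0.25 either way, a change of at most 1.19-fold, and no interval reached beyond 0.44. The interval covered 0 in 20 of the 28, so in the others it lay to 1 side of 0. An unadjusted p under 0.05 in limma was found for 13 of the 33 genes and for 4128 of all 18820.

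**Figure D1:**
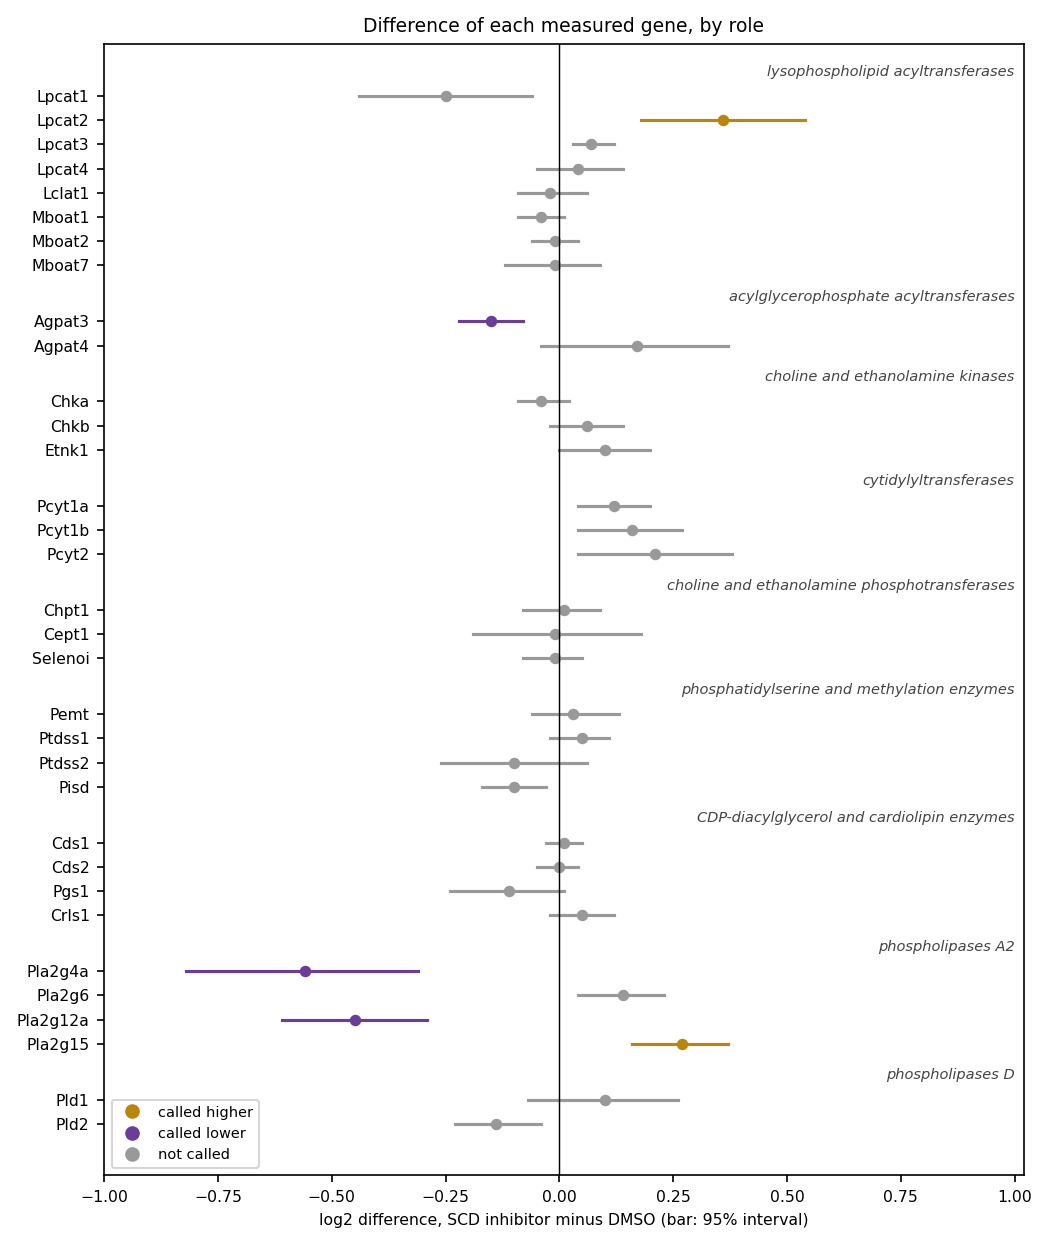
The log2 difference of each of the 33 measured genes, SCD inhibitor minus DMSO, on the horizontal axis with its 95% interval from limma, grouped by role from top to bottom. The 3 genes called lower and the 2 called higher are coloured, and most of the 28 others lie within 0.25 of 0.

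In 15 of the 33 genes the groups did not overlap, with all inhibitor arrays above (9) or below (6) all DMSO arrays, that is 45.5%, against 17.3% of all genes. Within the brighter 50% it was 13 of the 27 genes of the set, or 48.1%, against 30.8% of all genes. In 5 of the 15 genes the gap between the groups was under 0.01, so the order of the arrays is all that separates them. The spread between replicates was like that of other genes, with a median SD of 0.050 under the inhibitor and 0.048 in DMSO for the set, and 0.048 and 0.047 for all genes. Cds1 had the same value on all 4 DMSO arrays, and Mboat7 had the same value on all 3 inhibitor arrays while its DMSO values had an SD of 0.080.

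The cultures carried adipocyte transcripts in both groups. Of 12 measured adipocyte markers 1, Car3, fell (by 0.82), and the mean level of the list was 11.18 to 11.25 on inhibitor arrays and 11.27 to 11.32 on DMSO arrays. Of 10 measured preadipocyte or fibroblast markers 4 rose (Pdgfra, Pdgfrb, Dlk1 and Col1a1) and none fell, with mean levels of 7.33 to 7.40 under the inhibitor and 7.07 to 7.16 in DMSO. None of the 7 macrophage or 5 endothelial markers was called in limma (1 and 0 at an unadjusted p under 0.05), with mean levels of 4.28 to 4.34 and 3.54 to 3.59 on inhibitor arrays, and 4.33 to 4.37 and 3.54 to 3.62 on DMSO arrays. Within these lists Adgre1 had means of 3.12 under the inhibitor and 3.11 in DMSO, Pecam1 had 3.68 under the inhibitor and 3.73 in DMSO, and the highest macrophage reading was that of Cd68, at 5.89 under the inhibitor and 5.97 in DMSO. Lyz2, another macrophage marker, averaged 5.31 under the inhibitor and 5.64 in DMSO, with all inhibitor arrays below all DMSO arrays and no call. The mean levels of the adipocyte and preadipocyte lists did not overlap between the groups, but of the 12 adipocyte markers 6 had a positive and 6 a negative difference, with a median of 0.004. The part of the marker lists in the differences below was not tested. In such bulk RNA, fewer cells of a type and less RNA per cell cannot be told apart.

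All 4 phospholipases A2 of the set were separated between the groups, and 3 of them were called, in opposite directions. Over all genes 17.3% were separated and 8.00% called, and in the brighter 50% it was 30.8% and 14.9%. Pla2g12a, which encodes a secreted phospholipase A2, had levels of 8.29, 8.37 and 8.14 on inhibitor arrays and of 8.84, 8.66, 8.70 and 8.67 on DMSO arrays. Every inhibitor value was below every DMSO value, by at least 0.2949. The means were 8.26 ± 0.12 (SD, n = 3) under the inhibitor and 8.72 ± 0.084 (SD, n = 4) in DMSO. It fell by 0.45 (SE 0.066), or 1.37-fold (adjusted p = 0.00906 in limma). The call held in all 7 fits without 1 array (adjusted p from 0.0219 to 0.0368) and ended without both arrays numbered 1 (0.0741). It also ended with the replicate number as a block (adjusted p = 0.0584 in limma).

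Pla2g4a encodes cytosolic phospholipase A2 alpha, which releases arachidonate from phospholipids for the synthesis of prostaglandins and leukotrienes. Its levels were 6.98, 7.33 and 7.32 under the inhibitor and 7.61, 7.92, 7.82 and 7.74 in DMSO, with SCD inhibitor 1 the lowest and no overlap. It fell to a mean of 7.21 ± 0.19 (SD, n = 3) under the inhibitor, against 7.77 ± 0.13 (SD, n = 4) in DMSO. The difference was -0.56 (SE 0.11, 1.48-fold lower, adjusted p = 0.0244 in limma). Adjusted p was 0.0539 without SCD inhibitor 2, 0.0603 without SCD inhibitor 3, 0.0679 without DMSO 2, 0.0815 without DMSO 3 and 0.0748 without DMSO 4, while the difference stayed between -0.62 and -0.45 in all alternatives.

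Pla2g15 encodes the lysosomal phospholipase A2, which works at acid pH. Its levels were 9.99, 10.03 and 10.03 under the inhibitor and 9.86, 9.70, 9.73 and 9.70 in DMSO. The inhibitor arrays lay close together and above all DMSO arrays, of which DMSO 1 was the highest. The means were 10.02 ± 0.021 (SD, n = 3) under the inhibitor and 9.75 ± 0.079 (SD, n = 4) in DMSO, and it rose by 0.27 (SE 0.044), or 1.21-fold (adjusted p = 0.0132 in limma). Adjusted p was 0.0584 without SCD inhibitor 2 and 0.0615 without SCD inhibitor 3. Pla2g6, the calcium-independent phospholipase A2 beta, had levels of 9.66, 9.55 and 9.56 under the inhibitor and 9.46, 9.39, 9.47 and 9.51 in DMSO. The groups did not overlap, but the difference of 0.14 (SE 0.039) did not pass (adjusted p = 0.0936 in limma).

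The 250 bases upstream of the RefSeq start site (GRCm38.p6) are shown for the 3 called phospholipase A2 genes, because these moved in different directions, with any searched motif in capitals. For Pla2g4a, which has 2 listed start sites, the outer one is shown.
Pla2g12a, chr3:129880934-129881183, plus strand: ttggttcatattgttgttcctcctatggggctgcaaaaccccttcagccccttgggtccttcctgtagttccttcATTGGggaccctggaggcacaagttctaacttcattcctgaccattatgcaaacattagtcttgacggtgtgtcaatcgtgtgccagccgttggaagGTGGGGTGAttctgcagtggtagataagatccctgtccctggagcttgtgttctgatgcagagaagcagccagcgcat
Pla2g15, chr8:106150104-106150353, plus strand: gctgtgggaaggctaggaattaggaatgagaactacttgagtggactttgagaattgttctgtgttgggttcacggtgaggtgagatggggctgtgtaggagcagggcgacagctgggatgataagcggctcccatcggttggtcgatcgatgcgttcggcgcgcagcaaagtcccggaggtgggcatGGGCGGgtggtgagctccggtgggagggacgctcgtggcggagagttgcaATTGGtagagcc
Pla2g4a, chr1:149961291-149961540, minus strand: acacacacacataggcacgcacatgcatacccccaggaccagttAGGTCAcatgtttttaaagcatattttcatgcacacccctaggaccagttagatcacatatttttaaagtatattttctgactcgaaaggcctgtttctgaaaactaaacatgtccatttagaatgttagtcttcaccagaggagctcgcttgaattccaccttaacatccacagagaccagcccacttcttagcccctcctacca
Of the 33 genes 31 had such windows, 43 in all. On both strands 6 motifs were searched, none of which contains another: the SREBP element core TCACCCCAC, the E-box CACGTG, the nuclear receptor half-site AGGTCA, the CAAT box CCAAT, the GC box GGGCGG and the C/EBP-ATF element TGATGNAAT. TCACCCCAC was in the windows of Pla2g12a, on the reverse strand and starting at position -78 from the start site, and of Pcyt1a. These were 3 of the 43 windows, or 6.98%, against 0.496% of all 32851 windows. CCAAT was found for 18 of the 31 genes, Pla2g12a, Pla2g15 and Lpcat2 among them. It was in 46.5% of the 43 windows and in 33.8% of all windows. GGGCGG was found for 22 of the 31 genes, Pla2g15 and Lpcat2 among them, in 55.8% of the 43 windows and 32.7% of all windows. AGGTCA was in the window of Pla2g4a at position -206 and in that of Selenoi, in 4.65% of the 43 windows and 14% of all windows. GC made up 43.2% of the window of Pla2g4a, against 50.8% for Pla2g12a, 58.8% for Pla2g15 and a median of 52.4% over all windows. Among the 31 genes, CACGTG was in a window of Crls1 alone (2.33% of the 43 windows, 6.02% of all windows). TGATGNAAT was in none (0.816% of all windows). The window of Agpat3, a called gene whose sequence is not shown, held none of the 6 motifs.

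**Figure D2:**
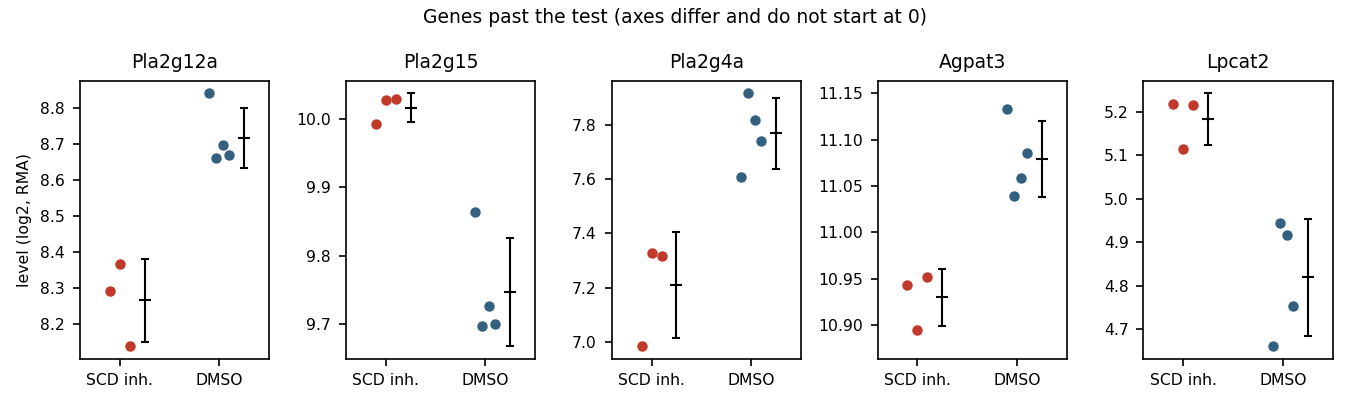
Level (log2, RMA) of the 5 called genes on each array, with SCD inhibitor arrays on the left and DMSO arrays on the right of each panel, and the mean with 1 SD beside them. In all 5 panels the groups do not overlap, and the values of Agpat3 differ by the least, 0.15.

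The lysophospholipid acyltransferases rebuild phospholipids from their lyso forms, and of 8 genes 1 rose, none fell and 7 did not pass. Lpcat2, whose product acylates lysophosphatidylcholine and also makes platelet-activating factor, had levels of 5.22, 5.11 and 5.21 under the inhibitor and 4.66, 4.94, 4.92 and 4.75 in DMSO. All inhibitor values were above all DMSO values, and the DMSO values were spread more widely. The means were 5.18 ± 0.060 (SD, n = 3) under the inhibitor and 4.82 ± 0.13 (SD, n = 4) in DMSO, a rise of 0.36 (SE 0.075, 1.29-fold, adjusted p = 0.0322 in limma). The call rests on nearly every array: adjusted p was 0.105 without SCD inhibitor 1, 0.0724 without SCD inhibitor 2, 0.118 without SCD inhibitor 3, 0.141 without both arrays numbered 1, 0.0515 without DMSO 1, 0.0552 without DMSO 3 and 0.103 without DMSO 4. With the replicate number as a block, adjusted p was 0.152.

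Lpcat1, an acyltransferase known for the saturated phosphatidylcholine of lung surfactant, went the other way without passing. Its levels were 6.52, 6.87 and 6.68 under the inhibitor and 6.99, 6.96, 6.96 and 6.87 in DMSO. SCD inhibitor 2 and DMSO 4 lay within 0.0029 of each other, and the difference was -0.25 (SE 0.078, adjusted p = 0.122 in limma). It passed without SCD inhibitor 2 (0.0321), after a further quantile normalization (0.0476) and with the arrays centred on their medians (0.0379).

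Lpcat3, the acyltransferase that puts polyunsaturated fatty acids into phosphatidylcholine and a known target of the sterol-sensing receptor LXR, had levels of 11.93, 11.93 and 11.96 under the inhibitor. In DMSO they were 11.87, 11.85, 11.85 and 11.89. It read nearest the upper end of the scale of all 33 genes, where arrays can understate a change, though levels of different rows are no measure of relative RNA amount. The groups did not overlap, but the difference of 0.07 (SE 0.020, interval 0.03 to 0.12) did not pass (adjusted p = 0.0796 in limma). In the row shared by Lpcat3 and Emg1, which was left out, the groups overlapped, with SCD inhibitor 1 at 9.05 and DMSO 2 at 9.09. The remaining acyltransferases did not pass and overlapped between the groups. These were Lpcat4 (0.04), Lclat1, which remodels cardiolipin (-0.02), Mboat7, which puts arachidonate into phosphatidylinositol (-0.01), Mboat1 (-0.04) and Mboat2 (-0.01). Mboat1 and Mboat2 had mean levels of 3.85 and 3.23, near the lower end of the scale.

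Acylglycerophosphate acyltransferases make phosphatidate, from which both triacylglycerol and phospholipids descend. Agpat3, which favours polyunsaturated acyl chains, fell to 10.94, 10.89 and 10.95 under the inhibitor, against 11.13, 11.04, 11.06 and 11.09 in DMSO. The groups did not overlap, and the decrease of 0.15 (SE 0.028, adjusted p = 0.0248 in limma) was the smallest of the 5 called changes, 1.11-fold. Adjusted p was 0.0566 without SCD inhibitor 1, 0.0815 without SCD inhibitor 2, 0.0623 without SCD inhibitor 3, 0.0572 without DMSO 3, 0.0761 without DMSO 4, 0.0816 without both arrays numbered 1 and 0.0778 with the arrays centred. With the replicate number as a block, adjusted p was 0.0874. Agpat4 had levels of 7.18, 7.52 and 7.18 under the inhibitor and 7.16, 7.07, 7.18 and 7.10 in DMSO, so that its difference of 0.17 came mostly from SCD inhibitor 2, and it did not pass (adjusted p = 0.327 in limma).

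**Figure D3:**
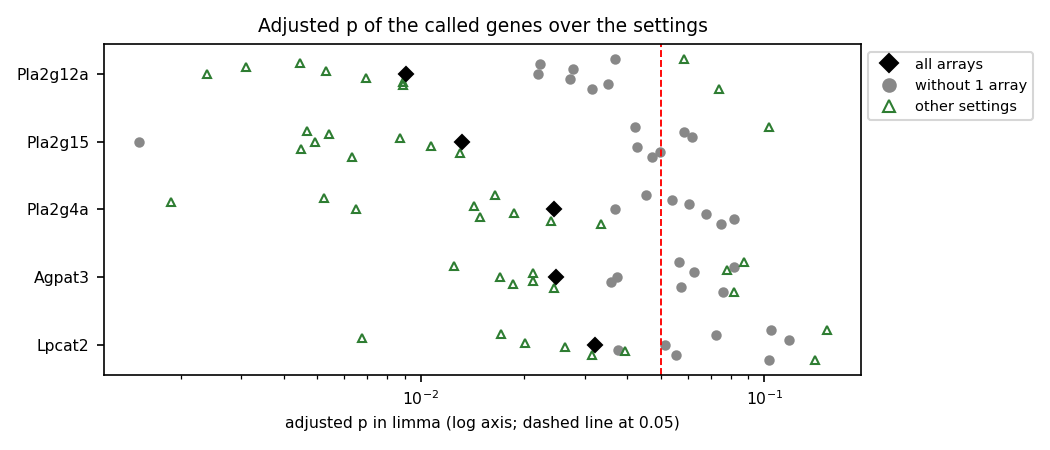
Adjusted p in limma (horizontal, log axis) of the 5 called genes with all arrays, without 1 array in turn and under the other settings. Pla2g12a stays under 0.05 in all 7 fits without 1 array, and Lpcat2 in 1 of 7.

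Of the Kennedy pathway, all 3 cytidylyl-transferases were higher on every inhibitor array than on any DMSO array, yet none passed in limma (3 at an unadjusted p under 0.05). Over all genes 17.3% were separated in either direction, and 30.8% of the brighter 50%. In limma 4128 of all 18820 genes had an unadjusted p under 0.05. Pcyt1a, the rate-limiting enzyme of phosphatidylcholine synthesis, had levels of 8.72, 8.71 and 8.82 under the inhibitor and 8.65, 8.58, 8.63 and 8.66 in DMSO. Its difference was 0.12 (SE 0.034, interval 0.04 to 0.20, adjusted p = 0.0843 in limma). Pcyt1b, its paralogue, had levels of 4.27, 4.39 and 4.47 under the inhibitor and 4.24, 4.16, 4.22 and 4.27 in DMSO, a difference of 0.16 (SE 0.050, adjusted p = 0.133). Pcyt2, the enzyme of the ethanolamine branch, had levels of 10.26, 9.97 and 10.11 under the inhibitor and 9.96, 9.97, 9.83 and 9.86 in DMSO, a difference of 0.21 (SE 0.072, adjusted p = 0.155). For Pcyt1b and Pcyt2 the gap between the groups was only 0.0029 and 0.0020. Pcyt1a and Pcyt1b passed after a further quantile normalization (0.0417 and 0.0441) and with the arrays centred (0.0496 and 0.0292), and Pcyt1b also without SCD inhibitor 1 (0.0459).

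**Figure D4:**
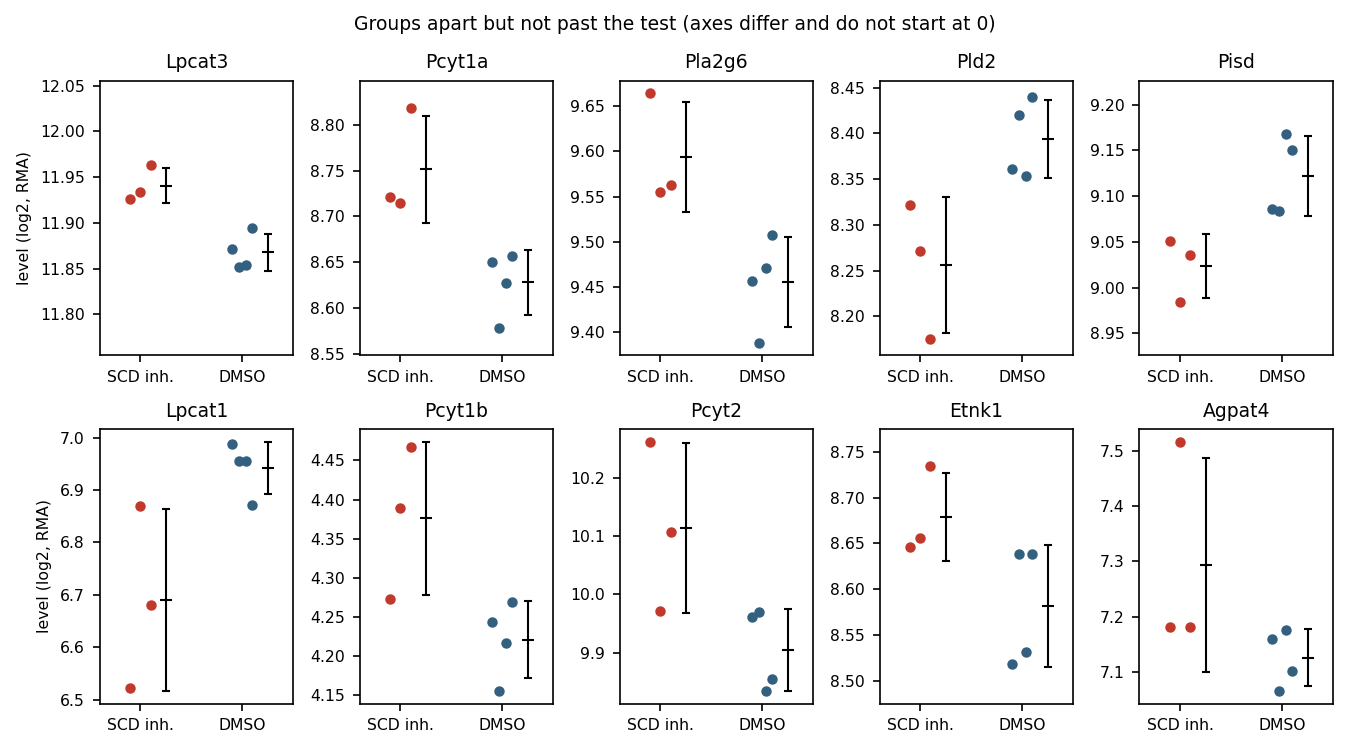
Level (log2, RMA) of the 10 genes whose groups did not overlap but which did not pass the test, with SCD inhibitor arrays on the left and DMSO arrays on the right of each panel, and the mean with 1 SD beside them. Of these, 7 are higher and 3 (Lpcat1, Pisd and Pld2) lower under the inhibitor, in several by little more than the distance between replicates.

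The first and last steps of the Kennedy pathway held no called gene in limma, and none of their 6 measured genes had an unadjusted p under 0.05. Of the kinases, Etnk1, which phosphorylates ethanolamine, had the smallest p, with levels of 8.65, 8.66 and 8.73 under the inhibitor and 8.52, 8.64, 8.53 and 8.64 in DMSO. Its difference was 0.10 (SE 0.042, adjusted p = 0.241 in limma). The choline kinases Chka and Chkb had differences of -0.04 and 0.06. Selenoi, the ethanolamine phosphotransferase, had levels of 9.87, 9.87 and 9.96 under the inhibitor and 9.91, 9.94, 9.88 and 9.91 in DMSO, and the groups overlapped. Selenoi, the choline phosphotransferase Chpt1 and the dual enzyme Cept1 had differences of -0.01, 0.01 and -0.01. Their 95% intervals were -0.08 to 0.05, -0.08 to 0.09 and -0.19 to 0.18.

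Among the enzymes of phosphatidylserine and of phosphatidylethanolamine methylation, none of 4 passed in limma (1 at an unadjusted p under 0.05). Pisd, the mitochondrial decarboxylase that turns phosphatidylserine into phosphatidylethanolamine, had levels of 9.05, 8.98 and 9.04 under the inhibitor and 9.09, 9.08, 9.17 and 9.15 in DMSO. The groups did not overlap, and the difference was -0.10 (SE 0.030, adjusted p = 0.118 in limma). The base-exchange enzymes Ptdss1, which starts from phosphatidylcholine, and Ptdss2, which starts from phosphatidylethanolamine, had differences of 0.05 and -0.10. Pemt, which methylates phosphatidylethanolamine to phosphatidylcholine and is best known from liver, had one of 0.03.

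None of the 4 genes of CDP-diacylglycerol and cardiolipin synthesis passed in limma, and none had an unadjusted p under 0.05. Pgs1, which makes the phosphatidylglycerol phosphate from which cardiolipin descends, had levels of 8.88, 8.85 and 8.68 under the inhibitor and 8.88, 8.96, 8.90 and 8.93 in DMSO. Only SCD inhibitor 3 lay clearly apart, and the difference was -0.11 (SE 0.051, adjusted p = 0.261 in limma). Crls1, cardiolipin synthase, had a difference of 0.05. The CDP-diacylglycerol synthase Cds2 had one of -0.00 (interval -0.05 to 0.04). Its paralogue Cds1 read nearest the lower end of the scale, at 3.03, 3.03 and 3.05 under the inhibitor and 3.03 on each DMSO array, where a change could hardly be seen.

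The phospholipases D, which cleave phosphatidylcholine to phosphatidate and choline, did not pass in limma either (1 of 2 at an unadjusted p under 0.05). Pld2 had levels of 8.32, 8.27 and 8.18 under the inhibitor and 8.36, 8.42, 8.35 and 8.44 in DMSO. The groups did not overlap, and the difference was -0.14 (SE 0.041, adjusted p = 0.108 in limma). A further row of Pld2 read 6.85, 6.80 and 6.56 under the inhibitor and 6.98, 6.80, 6.89 and 6.75 in DMSO and overlapped. Pld1 had a difference of 0.10 (SE 0.069).

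Beyond the set, 90 further genes were listed, of phosphatidate and ether lipid synthesis, other phospholipases and lysophospholipases, transport of phospholipid precursors, cardiolipin handling, and lipid-sensing transcription factors. Of the 83 that were measured, 3 rose and 7 fell, with a median difference of 0.005. The called share of 12.0% lies between those of all genes (8.00%) and of the brighter 50% (14.9%), and without SCD inhibitor 2 the 10 calls came down to 6. The largest changes in this list were those of 2 lipid hydrolases. Pla2g2e, a secreted phospholipase A2, had levels of 7.23, 7.19 and 7.37 under the inhibitor and 8.08, 7.97, 8.15 and 8.01 in DMSO. It fell by 0.79 (SE 0.058, 1.73-fold, adjusted p = 0.000539 in limma). The other measured genes of this list with a Pla2g symbol did not pass in limma, and none had an unadjusted p under 0.05. Their mean levels were 3.41 to 5.25, below the median level of all genes, 5.59. Abhd6, a hydrolase of monoacylglycerols and lysophospholipids, had levels of 9.02, 8.95 and 8.91 under the inhibitor and 9.71, 9.56, 9.65 and 9.74 in DMSO. It fell by 0.70 (SE 0.049, adjusted p = 0.000466 in limma). For both genes the groups lay further apart than the replicates of either.

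Gpcpd1, which splits glycerophosphocholine, fell by 0.49 (SE 0.056), and Agpat5, a further acylglycerophosphate acyltransferase, fell by 0.47 (SE 0.061). Pnpla6, a lysophospholipase of the endoplasmic reticulum, rose to 8.61, 8.60 and 8.51 under the inhibitor, against 7.90, 8.12, 8.08 and 8.15 in DMSO, a difference of 0.51 (SE 0.064). These 3 genes, Pla2g2e and Abhd6 passed in all 16 alternatives. Of the transcription factors, Ppara, the fatty acid receptor PPAR alpha, fell by 0.54 (SE 0.061, adjusted p = 0.00341 in limma). With the replicate number as a block, its adjusted p was 0.0531. Srebf1 (0.15), Srebf2 (0.08), Nr1h3, which encodes LXR alpha (-0.01), Ppard (-0.05) and Pparg (0.07) did not pass. Srebf1 had adjusted p = 0.085 in limma with all arrays and passed without DMSO 1 (0.00494), without both arrays numbered 1 (0.0231), with array weights (0.0288), after a further quantile normalization (0.046) and with only the brighter 50% of genes tested (0.0439).

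The remaining calls of the wider list depended on single arrays. Gpat3, a glycerol phosphate acyltransferase, fell by 0.37, and its adjusted p in limma was 0.0771 without SCD inhibitor 1, 0.0928 without SCD inhibitor 2, 0.0807 without DMSO 1, 0.061 without DMSO 2 and 0.0799 without DMSO 4, and 0.178 without both arrays numbered 1. Tmem86a, a lysoplasmalogenase, fell by 0.44, with 0.0607, 0.0604 and 0.053 without SCD inhibitor 1, 2 and 3, 0.0574 without DMSO 1 and 0.148 without both arrays numbered 1. The lipid phosphate phosphatases Plpp1 and Plpp3 rose by 0.40 and 0.11. Adjusted p of Plpp1 was 0.064 without SCD inhibitor 2, 0.0686 without SCD inhibitor 3, 0.0552 without DMSO 1, 0.0501 without DMSO 2 and 0.1 without both arrays numbered 1. That of Plpp3 was 0.051, 0.0989 and 0.103 without SCD inhibitor 1, 2 and 3, 0.0871, 0.0867 and 0.0901 without DMSO 2, 3 and 4, and 0.0528 with the arrays centred. The replicate number as a block gave adjusted p of 0.154 for Gpat3, 0.0974 for Tmem86a and 0.188 for Plpp3 in limma. None of the 12 measured genes for the transport of choline, lysolipids and serine, and none of the 6 for phosphatidylinositol and cardiolipin, passed in limma (2 and 5 at an unadjusted p under 0.05).

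**Figure D5:**
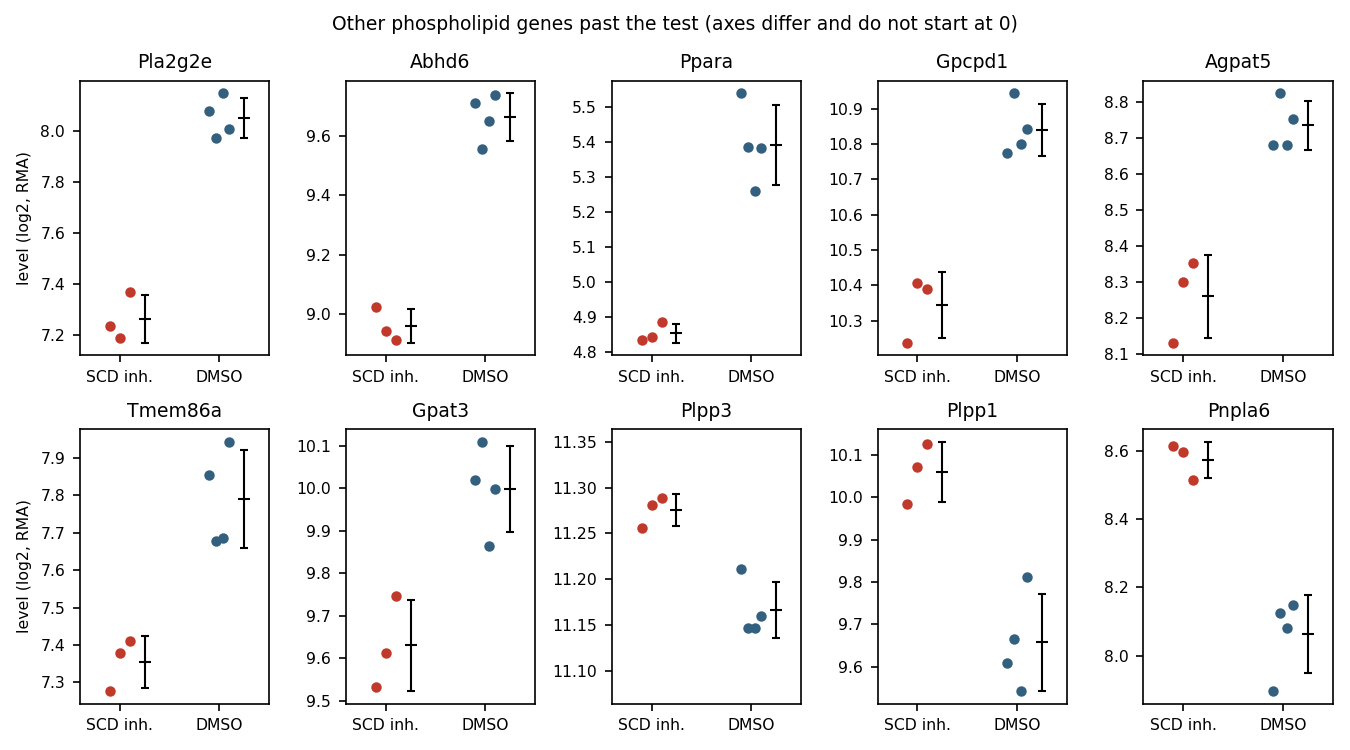
Level (log2, RMA) of the 10 called genes of the wider list on each array, with SCD inhibitor arrays on the left and DMSO arrays on the right of each panel, and the mean with 1 SD beside them. The panels run from the largest decrease, Pla2g2e at -0.79, to the largest increase, Pnpla6 at 0.51, and in none do the groups overlap.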

How the data were processed

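Total RNA of 7 samples, 100 ng each, was labelled for Affymetrix whole-transcript arrays, 1 array per sample, per the labels' protocols. The deposited values are RMA expression levels, per the submitters' processing notes, on a log2 scale, as read from their range of 2.23 to 13.25 and array medians of 4.88 to 4.94. The RMA version, the annotation release and filters are not stated there. Very dim and very bright rows can understate a change, and the number of arrays limits the precision. Over all genes, the 9 pairs of arrays within a group correlated at 0.99902 to 0.99948 and the 12 pairs between groups at 0.99684 to 0.9975. Of 28996 rows, 21218 had 1 gene symbol, 1881 had several and 5897 were not listed in the annotation. Those with several or none were left out, which left 18820 genes.

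All 7 arrays entered 1 fit with a term for the inhibitor (limma 3.58.1, lmFit, then eBayes with neither trend nor robust, R 4.3.3, 5 residual and 1.68 prior degrees of freedom), with Benjamini-Hochberg adjustment of p-values over the whole table. The script was tested on simulated data. The genes, their roles and the wider list were chosen with earlier results of these data known. All measured genes of the set were described. Values on every array are given for called genes, for the gene with the smallest p of each role, for the genes reading nearest each end of the scale and, chosen after their values were seen, for separated genes. Of the wider list the called genes and the transcription factors were named. The alternatives were a replicate block, a further quantile normalization, median centring, dropping the dimmest 25% or 50% of genes, trend and robust moderation, array weights, the mean of all rows of a gene, each array left out, and both arrays numbered 1 left out. Upstream sequences came from RefSeq.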

Additional observations from a re-analysis of the deposited data

Results flagged for a closer look

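Among the 33 genes, 4 had a DMSO array that stood far from the other 3 for the range of its group. Chance alone gives about 1 in 20 for normally distributed values, a rate that does not hold where values are tied. Ptdss2 read 9.53 on DMSO 1 and 9.27 to 9.31 on the other DMSO arrays, and its difference, inhibitor minus DMSO, was -0.10 with and -0.04 without that array. Mboat1 read 3.87 on DMSO 2 against 3.86, Mboat2 3.25 on DMSO 1 against 3.23, and Chpt1 11.00 on DMSO 3 against 11.01. In these 3 genes the other DMSO arrays held the same value, so any step on the remaining array is flagged, however small. None of the 4 genes was called in any setting.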

How the results depend on the processing

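With the replicate number as a block, Pla2g4a alone of the 5 called genes of the set stayed called (adjusted p = 0.0165 in limma), while adjusted p was 0.0584 for Pla2g12a, 0.103 for Pla2g15, 0.0874 for Agpat3 and 0.152 for Lpcat2. In the wider list the block ended the calls of Ppara (0.0531), Gpat3 (0.154), Plpp3 (0.188) and Tmem86a (0.0974). In the set, 8 genes were called after a further quantile normalization, 2 without both arrays numbered 1 and 1 to 4 without 1 array. Without SCD inhibitor 3 it was 1 gene, and 2 each without SCD inhibitor 2, DMSO 3 or DMSO 4. Higher genes numbered 2 in the main setting, 0 with the block in limma (6 at an unadjusted p under 0.05), 4 after quantile normalization, 4 with centring, 1 with the dimmest 50% dropped, 1 without both arrays numbered 1 and 0 to 2 without 1 array, being 0 without SCD inhibitor 2 or 3 (6 and 5 at an unadjusted p under 0.05). Lower genes numbered 3, and 1 with the block, 1 without both arrays numbered 1 and 1 to 3 without 1 array. In the wider list, 10 calls became 6 with the block and 6 to 10 without 1 array. Its higher genes, 3 at first, became 6 after quantile normalization, 6 with the dimmest 50% dropped and 1 to 5 without 1 array (1 without SCD inhibitor 2 or DMSO 2, 5 without DMSO 1), and its 7 lower genes became 4 with the block. Calls over all genes, 1505 in the main setting, were 896 with the block, 2326 with centring, 808 without both arrays numbered 1 and 949 to 1294 without 1 array (949 without SCD inhibitor 3, 980 without DMSO 4). The higher share of them was 45.3%, and 55.7% with centring. The labels do not say whether the shared replicate numbers pair the samples. Deviations of same-numbered arrays correlated at 0.17, 0.14 and 0.08, and those of the other pairs at -0.17 to 0.16. The cause of these moves was not tested.

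Differences near 0 changed sign without being called in any setting. With the arrays centred they were 0.004 for Mboat2, 0.003 for Mboat7, 0.007 for Cept1, 0.002 for Selenoi, 0.01 for Cds2 and 0.003 for Nr1h3. Without both arrays numbered 1 they were 0.011 for Lclat1, 0.01 for Mboat2, 0.077 for Cept1, 0.002 for Selenoi, 0.007 for Cds2 and 0.007 for Nr1h3. With array weights they were 0.001 for Mboat2, 0.02 for Cept1 and 0.001 for Cds2, with the block 0.027 for Mboat7, and after quantile normalization 0.004 for Cept1. Without 1 array they ran from -0.047 to 0.015 for Lclat1, -0.024 to 0.005 for Mboat2, -0.033 to 0.027 for Mboat7, -0.032 to 0.046 for Chpt1, -0.089 to 0.081 for Cept1, -0.042 to 0.002 for Selenoi, -0.01 to 0.005 for Cds2 and -0.042 to 0.023 for Nr1h3.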
